A study of Mus musculus with 18 samples.

Results

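The genes described here are those of the urea cycle and of ammonia handling: Nags, Cps1, Otc, Ass1, Asl and Arg1 of the cycle, the second arginase Arg2, and Glul, Gls2 and Glud1, which make or use glutamine and glutamate. The list was drawn up by function, with earlier results of these data known. Of the 10 genes listed, 9 had a probe set named for that gene alone, among 18193 genes of the array that did. Gls2, the liver-type glutaminase, had none and was not analysed here. Where a gene had several sets, the set that was brightest on average over the 18 arrays was taken.

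The mice were males of the inbred strain C57BL6 and weighed 20 g. They were injected intraperitoneally with saline or with 4.5 g per kg of D-galactosamine (GalN), a hexosamine used to damage the liver. Both organs were collected from sham mice at 24 h and from GalN mice at 24 h or at 48 h, which gave 6 groups of 3 arrays. No 48 h saline group was analysed here, so time since injection differs as well wherever 48 h is set against sham. The organs had been perfused in situ, and the RNA came from pieces of whole organ, so fewer cells of a type and less RNA per cell cannot be told apart. Arrays within a group carry the letters A, B and C, and values below are given in that order.

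The urea cycle converts ammonia to urea in hepatocytes. Its first steps lie in mitochondria, where N-acetylglutamate from Nags activates Cps1 and Otc joins carbamoyl phosphate to ornithine, and its later steps, by Ass1, Asl and Arg1, lie in the cytosol. In liver the cycle works mainly in periportal hepatocytes, while a narrow rim of pericentral hepatocytes carries glutamine synthetase (Glul) and takes up the ammonia that remains. The kidney has no full cycle: its proximal tubules make arginine with Ass1 and Asl, and it releases ammonia from glutamine. Mitochondrial arginase 2 (Arg2) is the form found in kidney.

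Bases just upstream of a listed transcription start were at hand from the RefSeq promoter table (GRCm38.p6) for 5 of the 10 genes, Ass1, Glud1, Glul, Nags and Otc. The stretches of Otc, Nags and Glul are shown because Otc and Nags read at background in kidney and Glul was bright in both organs. Capitals mark the letters CCAAT or GGGCGG read on either strand, and each stretch is on the plus strand. The Otc stretch is chrX:10252055-10252229, that of Nags chr11:102145263-102145512 and that of Glul chr1:153899679-153899928. The Otc window was trimmed from 250 to 175 bases, since its last 75 bases lie inside the gene as listed.
Otc: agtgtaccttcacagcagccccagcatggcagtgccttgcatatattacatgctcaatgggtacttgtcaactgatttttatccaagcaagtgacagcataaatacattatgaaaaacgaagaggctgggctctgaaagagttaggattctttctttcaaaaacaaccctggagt
Nags: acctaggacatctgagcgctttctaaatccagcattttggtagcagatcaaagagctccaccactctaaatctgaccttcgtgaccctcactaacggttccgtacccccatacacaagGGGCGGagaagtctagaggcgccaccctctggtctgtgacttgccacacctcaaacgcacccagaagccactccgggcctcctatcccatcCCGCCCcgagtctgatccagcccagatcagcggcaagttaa
Glul: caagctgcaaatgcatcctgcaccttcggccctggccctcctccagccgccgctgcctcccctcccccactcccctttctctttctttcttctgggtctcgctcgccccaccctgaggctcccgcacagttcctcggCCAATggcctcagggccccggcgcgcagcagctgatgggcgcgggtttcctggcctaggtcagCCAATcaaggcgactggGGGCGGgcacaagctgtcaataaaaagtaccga

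The windows of 250 bases differed in base composition. GC made up 43.6% of the Otc window, 55.6% of that of Nags, 64.8% of that of Glul, 75.6% of that of Ass1 and 82% of that of Glud1, against a median of 52.4% over 32851 windows of the table. The dinucleotide CG occurred 1 time in the Otc window, and 18.8% of all windows held at most 1. It occurred 11 times for Nags, 15 for Glul, 23 for Ass1 and 46 for Glud1, against a median of 6. CCAAT on either strand was found 2 times in the Glul window and in none of the other 4, while 33.8% of all windows held it. GGGCGG on either strand was found 3 times in the Glud1 window, of which 2 lie side by side, 2 times for Nags, 1 time for Glul and for Ass1, and not for Otc, against 32.7% of windows holding it. TATAAA was found in none of the 5, against 12.4% of windows. A match describes the letters of the window and is no evidence of binding.

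Values are log2 gcRMA expression values, where 1 unit is a factor of 2 in signal. The lowest value in the table was 2.21, and array medians lay close to it, between 2.36 and 2.43. A group counts as at the floor if each of its 3 arrays read within 1 unit of that value. Folds against a group with any array in that range are lower bounds, computed against 3.21. Since the median lies so near the floor, the filter on dim genes (above the median in at least 3 arrays) also let in genes at the floor. Arrays of a group correlated with each other at r of 0.983 or more. The liver 48 h array C stood apart: the signal gap between the 3′ and 5′ control probes, a measure of RNA integrity, was 2.56 for actin and 0.81 for Gapdh, against at most 2.02 and 0.35 on the other arrays. A test was called at a limma adjusted p under 0.05, and 3 arrays a group limit its precision.

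**Figure D1:**
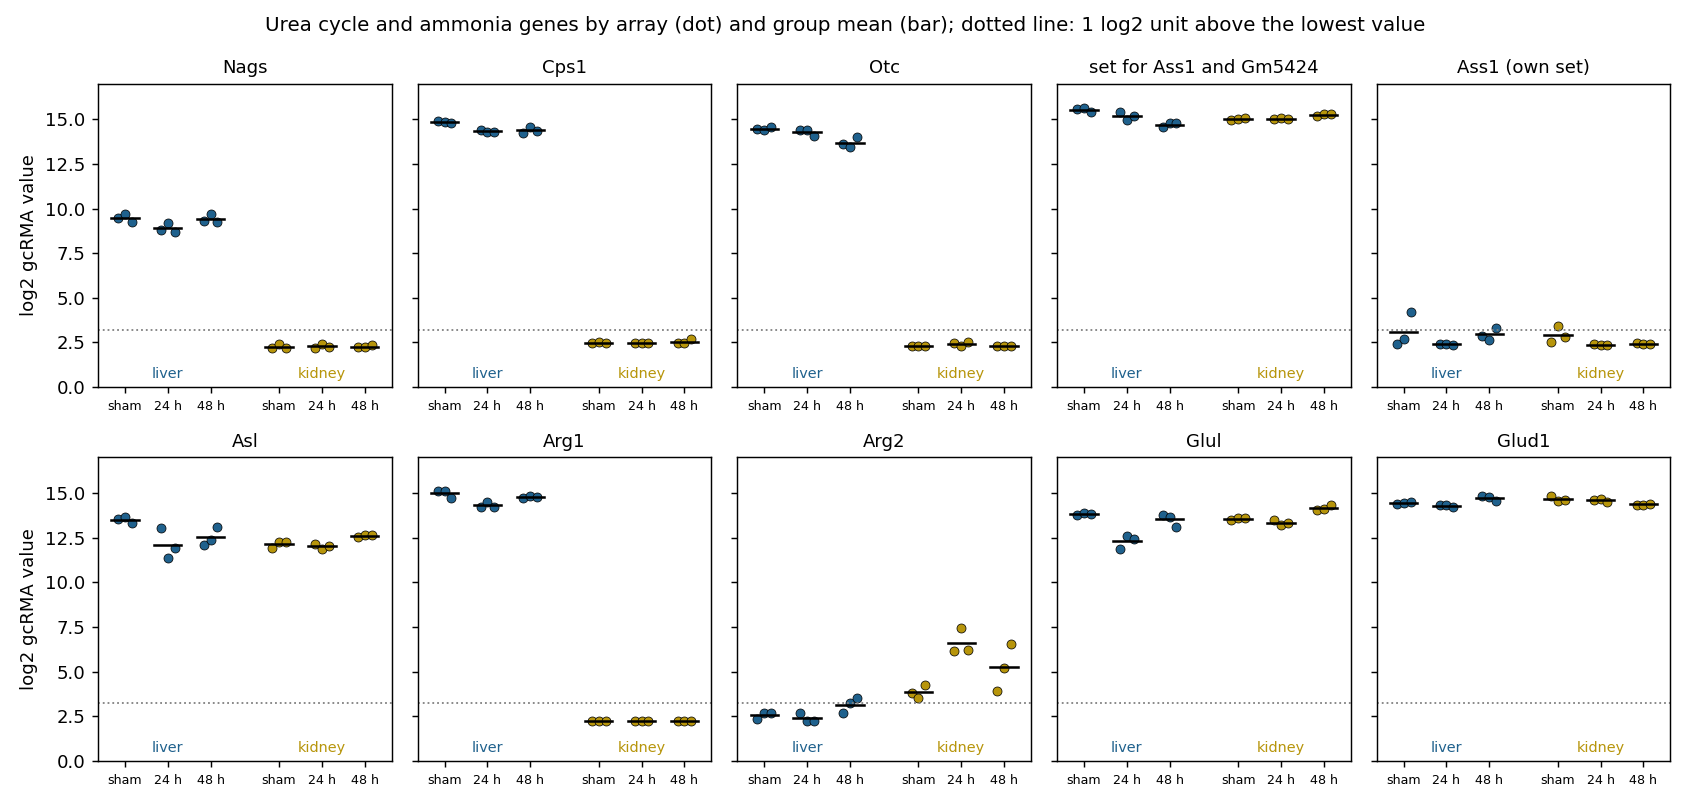
Log2 gcRMA value (vertical axis) of each array (dots) with the group mean (bars) for the 9 genes and for the set listed for Ass1 and Gm5424, in liver (blue) and kidney (ochre) at sham, 24 h and 48 h. Nags, Cps1, Otc and Arg1 lie under the dotted line, 1 unit above the lowest value, in all kidney arrays, and Glul dips in liver at 24 h, from a mean of 13.84 to 12.29.

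Sham liver and sham kidney differed most in Nags, Cps1, Otc and Arg1. Between the sham organs, 5 of the 9 genes were higher in liver and 1 was higher in kidney, where 47.6% of the 12453 genes tested were called (18.9% higher in liver, 28.7% lower, a split that median centring turns to 4937 and 2573 genes from 2357 and 3576). Cps1, carbamoyl phosphate synthetase 1, was at least 3207-fold higher in liver, Otc, ornithine transcarbamylase, at least 2436-fold, Arg1, the cytosolic liver arginase, at least 3522-fold and Nags at least 75.5-fold. These 4 genes were at the floor in all 3 kidney groups. Asl, argininosuccinate lyase, was measured in both organs, at 13.49 ± 0.18 in sham liver and 12.15 ± 0.20 in sham kidney (mean ± SD, n = 3), 2.54-fold higher in liver (adjusted p = 0.00358).

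Glul stood at 13.84 ± 0.07 in sham liver and 13.55 ± 0.07 in sham kidney, a difference of 0.28 that did not pass the test (adjusted p = 0.243, 95% interval -0.12 to 0.68). The difference was called in 4 of 11 other settings: median centring (0.65, adjusted p = 0.00395), averaged sets (0.49, 0.0242), array weights (0.0051) and only the arrays compared (0.00992). Its other set gave 0.70 (adjusted p = 0.0227). Glud1, glutamate dehydrogenase, was 0.22 lower in sham liver (14.45 ± 0.04) than in sham kidney (14.67 ± 0.13, adjusted p = 0.029). The organs' scales differ, and centring arrays on the median of the genes tested adds 0.37 to every such difference and turns that of Glud1 to 0.15 (adjusted p = 0.193). The Glud1 call was also lost when liver sham A, liver sham B or kidney sham A was left out, with adjusted p-values of 0.0674 to 0.149. Arg2 was at the floor in sham liver and at 3.87 ± 0.36 in sham kidney, at least 1.58-fold higher in kidney, with an adjusted p of 0.0501. That difference passed in 7 of 11 other settings and, at adjusted p-values of 0.0128 to 0.0394, without kidney 24 h B, kidney 48 h A or kidney 48 h C.

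In liver 24 h after GalN, 4 of the 9 genes fell, Cps1, Asl, Arg1 and Glul, and none rose. Over all 12062 genes tested in liver, 32.9% were called, 17.9% higher and 15% lower, so calls were common at this time. The median change of the 9 genes was -0.56, beside 0.01 over all genes. Centring arrays on the median of the genes tested would lower every liver change by 0.16 at 24 h and by 0.14 at 48 h. The rank product test named in the design text called none of the 9 at this time, while it called 4.89% of all genes. Without liver 48 h array C the count was 5, with Glud1 added, where 38.8% of 11990 genes were called.

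In liver at 48 h, 2 of the 9 genes were lower than sham, Cps1 and Otc, where 10.2% of all genes were called, 6.25% higher and 3.94% lower. Their median change was -0.23, beside 0.03 over all genes. From 24 h to 48 h, 4 genes rose (Arg1, Arg2, Glul and Glud1) and Otc fell, where 27.8% of genes were called (14.7% higher, 13.2% lower). The comparisons with sham share the sham arrays. Without liver 48 h array C, Glud1 also rose against sham, which made 3 calls, and Arg1 and Arg2 were no longer called between 24 h and 48 h. Those fits called 13.3% of all genes at 48 h against sham and 28.9% from 24 h to 48 h. Leaving out 1 array at a time gave 0 to 3 calls at 48 h against sham.

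Cps1, which makes carbamoyl phosphate from ammonia, stood at 14.90, 14.86 and 14.82 in sham liver, at 14.41, 14.32 and 14.29 at 24 h, and at 14.26, 14.54 and 14.34 at 48 h. All 6 arrays after GalN lay below all 3 sham arrays. Cps1 fell 1.43-fold at 24 h (log2 difference -0.52 ± 0.08 SE, adjusted p = 0.00364) and was 1.39-fold below sham at 48 h (-0.48 ± 0.08, adjusted p = 0.0168). The 24 h call was lost under quantile normalization (-0.30, adjusted p = 0.0664), and that at 48 h likewise (-0.36, adjusted p = 0.0761). The 48 h call was also lost without liver sham A (adjusted p = 0.0522), liver sham B (0.0623) or liver 48 h A (0.05). Between 24 h and 48 h Cps1 differed by 0.04 (adjusted p = 0.786, 95% interval -0.16 to 0.24).

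Otc, the next enzyme of the mitochondrial part, followed another course in the set that stands for it. It stood at 14.45, 14.39 and 14.55 in sham liver, at 14.42, 14.40 and 14.09 at 24 h, and at 13.59, 13.43 and 14.00 at 48 h. The 24 h arrays overlapped sham (-0.16 ± 0.16, adjusted p = 0.49), and all 48 h arrays lay below both other groups. Otc was 1.73-fold below sham at 48 h (-0.79 ± 0.16, adjusted p = 0.0257) and fell 1.55-fold from 24 h to 48 h (-0.63 ± 0.16, adjusted p = 0.0249). The 48 h call against sham was lost, at adjusted p-values of 0.0581 to 0.0856, without any 1 of the sham arrays, 48 h A or 48 h B. The call between 24 h and 48 h was lost without 24 h A, 24 h B, 48 h A or 48 h B, at 0.0627 to 0.0766.

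The probe sets of Otc disagreed at 24 h. The set 1420525_a_at changed by -0.33 (adjusted p = 0.117) at 24 h and fell by 0.88 (adjusted p = 0.0127) at 48 h, close to the set that stands for the gene. The dimmer set 1425540_at stood at 8.46, 8.53 and 8.29 in sham liver, 4.96, 4.14 and 4.71 at 24 h and 6.31, 4.24 and 6.87 at 48 h. It was 14.1-fold below sham at 24 h (adjusted p = 0.00436) and 6.15-fold below at 48 h (adjusted p = 0.0484). With its sets averaged, Otc was called lower in liver at 24 h (-1.44, adjusted p = 0.00824). Its kidney change minus liver change at 24 h was then called too (1.58, adjusted p = 0.00141). Which transcripts each set reads was not tested.

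Nags, whose product switches Cps1 on, stood at 9.45, 9.68 and 9.23 in sham liver, 8.78, 9.19 and 8.70 at 24 h and 9.31, 9.70 and 9.22 at 48 h. The 24 h arrays lay below all sham arrays, and the 48 h arrays spanned the sham range. The 24 h difference of -0.56 ± 0.20 did not pass the test (adjusted p = 0.0666), and the 48 h difference was -0.04 (adjusted p = 0.956, 95% interval -0.50 to 0.42). Nags was called lower at 24 h in 5 of the 13 other settings, among them quantile normalization (adjusted p = 0.0453) and median centring (adjusted p = 0.0212).

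Ass1, argininosuccinate synthetase, joins citrulline and aspartate. The only set named for it alone read near background: 2.41, 2.70 and 4.22 in sham liver, 2.40, 2.40 and 2.36 at 24 h, and 2.89, 2.63 and 3.33 at 48 h. In kidney it read 2.55, 3.42 and 2.81 in sham, 2.36 to 2.40 at 24 h and 2.40 to 2.45 at 48 h. It passed no test and carries little information on Ass1.

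A bright set, 1416239_at, is listed for both Gm5424 and Ass1 and cannot tell them apart. It was outside the rule for choosing sets and was added after the values were seen. In liver it stood at 15.57, 15.64 and 15.43 in sham, 15.39, 14.95 and 15.21 at 24 h and 14.55, 14.77 and 14.79 at 48 h. In kidney it stood at 14.96, 15.04 and 15.10 in sham, 15.04, 15.06 and 15.02 at 24 h and 15.19, 15.31 and 15.30 at 48 h. The 3 liver groups did not overlap each other, and the kidney 48 h arrays lay above all other kidney arrays.

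In a fit of all probe sets this shared set was 1.79-fold below sham in liver at 48 h (-0.84 ± 0.13, adjusted p = 0.0117; 0.053 without liver sham B). The 24 h difference was -0.36 ± 0.13 (adjusted p = 0.0747), and the set fell by 0.48 from 24 h to 48 h (adjusted p = 0.033). That call was lost in 6 of 9 fits that left out 1 array, at adjusted p-values of 0.0532 to 0.095. In kidney the 48 h difference was 0.23 (adjusted p = 0.0683). The kidney change minus the liver change at 48 h was 1.07 ± 0.14 (adjusted p = 4.28e-04).

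Asl, which cleaves argininosuccinate to arginine and fumarate, varied most between the treated livers. It stood at 13.54, 13.64 and 13.30 in sham liver, 13.02, 11.36 and 11.90 at 24 h and 12.07, 12.36 and 13.11 at 48 h. All 6 treated arrays lay below sham, with 24 h A and 48 h C the closest to it. Asl fell 2.64-fold at 24 h (-1.40 ± 0.44, adjusted p = 0.047). Leaving out any sham array, 24 h B, 24 h C, 48 h A or 48 h B ended that call, at adjusted p-values of 0.0589 to 0.129, as did a fit of every probe set (adjusted p = 0.0508). The 48 h difference of -0.98 ± 0.44 did not pass the test (adjusted p = 0.221).

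In kidney, where Asl serves arginine synthesis, it stood at 11.91, 12.25 and 12.28 in sham, 12.15, 11.85 and 12.06 at 24 h and 12.55, 12.64 and 12.67 at 48 h. The 48 h arrays lay above the other 6. The 48 h differences, 0.47 ± 0.12 from sham (adjusted p = 0.0853) and 0.60 ± 0.12 from 24 h (adjusted p = 0.0585), did not pass the test.

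Arg1, which splits arginine into urea and ornithine, stood at 15.12, 15.12 and 14.75 in sham liver, 14.22, 14.48 and 14.21 at 24 h and 14.70, 14.81 and 14.80 at 48 h. All 24 h arrays lay below all arrays of both other groups, and the 48 h arrays overlapped sham. Arg1 fell 1.61-fold at 24 h (-0.69 ± 0.12, adjusted p = 0.00536), a call that held in all 9 fits that left out 1 array. It rose 1.38-fold from 24 h to 48 h (0.46 ± 0.12, adjusted p = 0.0291). The latter was lost without 24 h A, 24 h C or any 1 of the 48 h arrays, at adjusted p-values of 0.0558 to 0.0907, and under median centring (0.0572).

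Arg2, the mitochondrial arginase, was read mainly in kidney. It stood at 3.81, 3.54 and 4.26 in sham kidney, 6.16, 7.44 and 6.23 at 24 h, and 3.91, 5.23 and 6.55 at 48 h. The 24 h arrays all lay above sham, and the 48 h arrays spread from the sham range to the 24 h range. The 24 h difference was 2.74 ± 0.67, or 6.68-fold (adjusted p = 0.0651). The threshold was missed here and passed in 7 of the 13 other settings, the rank product test (adjusted p = 0.0025) among them. It was also passed without kidney 48 h A (adjusted p = 0.043) or 48 h C (0.0443). The 48 h difference was 1.36 ± 0.67 (adjusted p = 0.327).

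The other Arg2 set, 1438841_s_at, stood at 3.34, 3.61 and 4.12 in sham kidney, 4.80, 6.75 and 5.88 at 24 h and 3.78, 3.35 and 4.19 at 48 h. Its 24 h arrays also lay above sham (2.12 ± 0.49, adjusted p = 0.061), and its 48 h arrays overlapped sham (0.09, adjusted p = 0.989). In liver Arg2 stood at 2.33, 2.67 and 2.69 in sham, 2.69, 2.21 and 2.21 at 24 h and 2.69, 3.24 and 3.51 at 48 h. The rise called in liver from 24 h to 48 h (0.78 ± 0.23, adjusted p = 0.0453) thus lay within or just above the floor. It was lost in 7 of the 11 other settings in which the gene was tested.

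Glul, glutamine synthetase, joins ammonia and glutamate and had the largest called change of the 9 genes in liver. It stood at 13.78, 13.91 and 13.83 in sham liver, 11.85, 12.61 and 12.43 at 24 h and 13.79, 13.68 and 13.09 at 48 h. All 24 h arrays lay below the others, and the 48 h arrays reached the sham range. Glul fell 2.91-fold at 24 h (-1.54 ± 0.24, adjusted p = 0.00321) and rose 2.34-fold from 24 h to 48 h (1.23 ± 0.24, adjusted p = 0.00932). Both calls held in all 9 fits that left out 1 array. At 48 h the difference from sham was -0.31 ± 0.24 (adjusted p = 0.478, 95% interval -0.88 to 0.26). The other Glul set, 1426235_a_at, gave -0.91 at 24 h (adjusted p = 0.0616) and 0.81 from 24 h to 48 h (adjusted p = 0.0984), neither called.

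In kidney, Glul was the only one of the 9 genes called by limma at 48 h. Of the 6 genes tested there, Cps1, Ass1, Asl, Arg2, Glul and Glud1, none was called at 24 h by limma, where 5.3% of 11990 genes were (2.21% higher, 3.09% lower). At an unadjusted p under 0.05, 3 of the 6 passed at 24 h: Arg2, Glul and Ass1, whose set reads near the floor. Counts at an unadjusted p, here and below, stand without the share over all genes. The rank product test called 1 of the 6 at 24 h, Arg2. Its counts in kidney, here and below, also stand without the share over all genes. At 48 h 1 of 6 was called, beside 2.77% of all genes (1.31% higher, 1.46% lower). Between 48 h and 24 h 1 of 6 was called, beside 1.62% of all genes (0.959% higher, 0.659% lower). The rank product test called Arg2 and not Glul in both 48 h comparisons.

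Glul stood at 13.48, 13.60 and 13.58 in sham kidney, 13.47, 13.24 and 13.32 at 24 h and 14.05, 14.13 and 14.33 at 48 h. The 48 h arrays lay above all 6 others. Glul was 1.53-fold above sham at 48 h (0.61 ± 0.09, adjusted p = 0.025) and 1.77-fold above 24 h (0.83 ± 0.09, adjusted p = 0.0224). The other set gave 0.82 against sham (adjusted p = 0.0158). Leaving out any sham array, 48 h B or 48 h C ended the call against sham, at adjusted p-values of 0.0521 to 0.0922. The call against 24 h was lost without 24 h C, 48 h A or 48 h B, at 0.0602 to 0.0679. In 1 fit of all 18 arrays the adjusted p against sham was 0.138.

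Glud1, which releases ammonia from glutamate or fixes it there, changed little in size. It stood at 14.41, 14.45 and 14.49 in sham liver, 14.33, 14.30 and 14.21 at 24 h and 14.83, 14.81 and 14.58 at 48 h. The 3 groups did not overlap. Glud1 rose 1.37-fold from 24 h to 48 h (0.46 ± 0.08, adjusted p = 0.00628), and its differences from sham, -0.17 at 24 h (adjusted p = 0.162) and 0.29 at 48 h (adjusted p = 0.0692), did not pass the test. The other set, 1416209_at, gave 0.20 from 24 h to 48 h (adjusted p = 0.197).

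In kidney Glud1 stood at 14.82, 14.58 and 14.62 in sham, 14.62, 14.65 and 14.50 at 24 h and 14.36, 14.36 and 14.37 at 48 h. The 48 h arrays lay below all others. The difference from sham was -0.31 ± 0.07 (adjusted p = 0.0724), and the other set gave -0.35 (adjusted p = 0.0175).

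**Figure D2:**
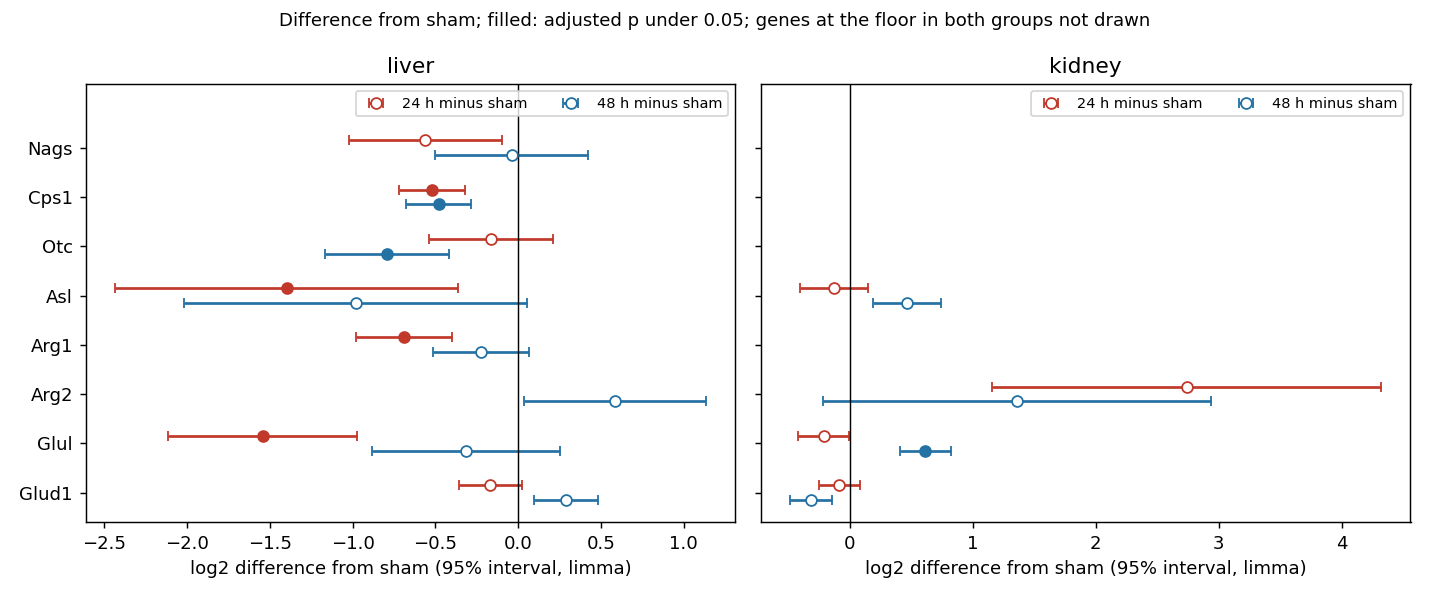
Log2 difference from sham (horizontal axis, limma, with 95% interval) at 24 h (red) and 48 h (blue) in liver and kidney; filled points passed an adjusted p under 0.05. Glul in liver at 24 h (-1.54) lies far from 0, Otc, by its brightest set, is called at 48 h but not at 24 h, and Glul in kidney is called at 48 h. Genes at the floor in both groups, and Ass1, whose own set is near the floor, are not drawn.

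**Figure D3:**
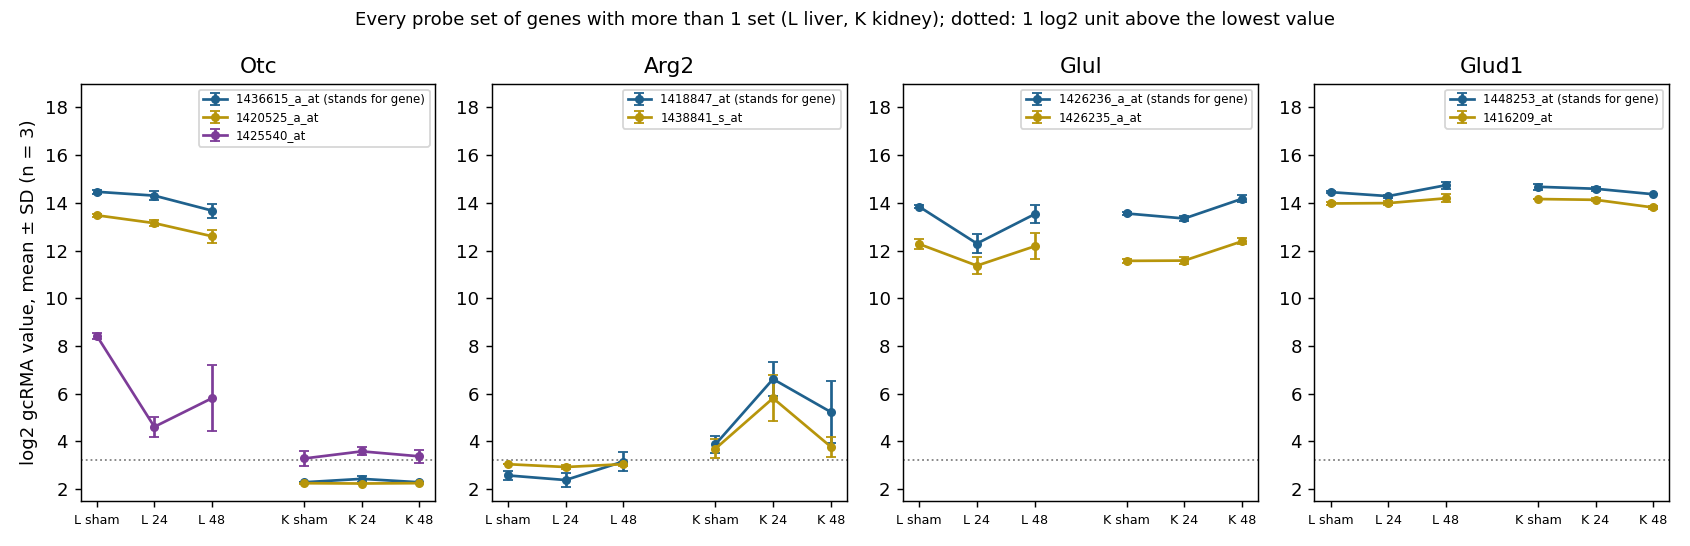
Mean ± SD (n = 3) log2 gcRMA value of each probe set of the 4 genes with more than 1, in liver (L) and kidney (K). Both Arg2 sets read higher in kidney at 24 h than in sham, by 2.74 and 2.12 (neither called), and the dim Otc set 1425540_at drops at 24 h (from 8.43 to 4.61) where the bright sets change by -0.16 and -0.33.

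The difference between the organs' responses was tested directly, as the kidney change minus the liver change. At 24 h it was called for 4 of 9 genes, beside 30.3% of 12453 genes (13.8% higher in kidney, 16.5% lower): Glul (1.33 ± 0.26, adjusted p = 0.00175), Arg2 (2.93 ± 0.73, adjusted p = 0.0073), Cps1 (0.50) and Arg1 (0.70). At 48 h it was called for 4, beside 13.1% of genes (4.67% higher, 8.43% lower): Cps1 (0.54), Otc (0.79), Glul (0.93 ± 0.26, adjusted p = 0.0337) and Glud1 (-0.60 ± 0.11, adjusted p = 0.0036). For Cps1, Otc and Arg1, at the floor in kidney, the contrast carries only the liver change. The other Glul set gave 0.92 at 24 h (adjusted p = 0.0506) and 0.91 at 48 h (adjusted p = 0.0907), neither called, and the other Arg2 set 2.24 at 24 h (adjusted p = 0.00471). Glul at 48 h was lost in 7 of 18 fits that left out 1 array, at adjusted p-values of 0.0558 to 0.0841. Asl gave 1.27 at 24 h (adjusted p = 0.0548) and 1.45 at 48 h (adjusted p = 0.0566), not called. Each passed in 5 of 11 other settings. The 24 h value also passed without liver 24 h A (0.00192) or liver 48 h C (0.0329), and the 48 h value without liver 24 h A (0.00953), liver 24 h B (0.0279) or liver 48 h C (0.0181). Median centring adds 0.11 at 24 h and 0.15 at 48 h to these contrasts.

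Other genes of nitrogen metabolism were read from lists chosen by function but with earlier results of these data known. The 10 genes were left out of them. Each count stands against the share of all genes called in the same comparison and is no independent test of its list. Of the carriers and ammonia channels that serve the cycle, 21 of 23 were tested in liver. At 24 h 9 fell and 2 rose, beside 15% lower and 17.9% higher over all genes, with a median change of -0.91 beside 0.01. The rank product test called 7 of the 21 at 24 h and 1 at 48 h. Car5a, the mitochondrial carbonic anhydrase that supplies bicarbonate to Cps1, fell 14-fold, from 11.77 ± 0.11 to 7.96 ± 1.13 (adjusted p = 0.00193). Slc1a2, a glutamate transporter of pericentral hepatocytes, fell 15.1-fold, from 10.27 ± 0.41 to 6.35 ± 1.34 (adjusted p = 0.00408). Slc25a13, the aspartate-glutamate carrier citrin, fell 6.67-fold, from 11.68 ± 0.08 to 8.94 ± 0.75 (adjusted p = 0.00215). Slc3a2, the heavy chain of several amino acid transporters, rose 5.93-fold to 10.52 ± 0.66 (adjusted p = 0.0317), and Slc7a7, its partner for basic amino acids, rose at least 1.66-fold from the floor (adjusted p = 0.0419).

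At 48 h the carriers gave 1 rise and 2 falls, beside 6.25% higher and 3.94% lower over all genes. Slc38a3, a glutamine transporter, was 2.79-fold below sham (12.70 ± 0.23 against 14.18 ± 0.11, adjusted p = 0.00686), and Rhbg, an ammonia channel, was 2.33-fold below (7.18 ± 0.26 against 8.40 ± 0.11, adjusted p = 0.00729). Slc25a12, the other aspartate-glutamate carrier, was 2.13-fold above sham (adjusted p = 0.0319). Without liver 48 h array C, Slc38a3 and Rhbg were still called, Slc25a12 was not, and Slc7a7 and Slc3a2 were called higher, which made 2 rises and 2 falls among 20 tested. That fit called 13.3% of all genes. From 24 h to 48 h 8 of the 21 rose and 1 fell, beside 14.7% higher and 13.2% lower over all genes.

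In kidney, 3 of 21 carriers and channels rose and 1 fell at 24 h by limma, beside 2.21% higher and 3.09% lower over all genes. The rank product test called none of the 21 at 24 h or at 48 h. Rhcg, the apical ammonia channel of the collecting duct, rose 1.87-fold, from 8.70 ± 0.21 to 9.61 ± 0.11 (adjusted p = 0.0169), and at 48 h it was 1.58-fold above sham (9.36 ± 0.07, adjusted p = 0.0354). Rhbg rose 1.61-fold at 24 h (adjusted p = 0.04) and Slc25a12 1.91-fold (adjusted p = 0.0232), while Slc38a2, a transporter of neutral amino acids, fell by 0.46 (adjusted p = 0.0392). Rhcg was the only gene of this list called by limma at 48 h. Calls of list genes and markers in kidney, here and below, were not checked with single kidney arrays left out. Over all genes, kidney calls against sham were far fewer without kidney sham A or B, as given at the end.

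Of the enzymes that release ammonia or pass nitrogen on, 14 of 19 were tested. In liver 5 fell and none rose at 24 h, a share called near the 32.9% of all genes, and at 48 h none was called by limma or the rank product test, while 5 had an unadjusted p under 0.05. Hal, histidine ammonia lyase, fell 9.88-fold, from 12.58 ± 0.40 to 9.28 ± 0.52 (adjusted p = 6.19e-04). Got1, the cytosolic aspartate aminotransferase, fell 5.75-fold, from 13.94 ± 0.18 to 11.42 ± 0.22 (adjusted p = 9.32e-05), and stood at 13.78 ± 0.09 at 48 h. Aspg, an asparaginase, fell 4.09-fold (adjusted p = 0.00263). The rank product test called only Hal and Got1 of this list in liver at 24 h. In kidney Asns, asparagine synthetase, rose 3.48-fold at 24 h, from 6.56 ± 0.24 to 8.36 ± 0.40 (adjusted p = 0.02). Oplah, the 5-oxoprolinase, rose 1.67-fold at 24 h (adjusted p = 0.0252), and Ampd3, an AMP deaminase, was 1.53-fold above sham at 48 h (adjusted p = 0.0299). Against sham, the rank product test called only Asns of this list in kidney, at 24 h.

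Of the ornithine, arginine, proline and polyamine enzymes, 17 were tested. In liver at 24 h 3 rose and 7 fell by limma, beside 17.9% higher and 15% lower over all genes. The rank product test called 1 of the 17 there at 24 h, Ddah1, and none at 48 h. Srm, spermidine synthase, rose 2.20-fold to 11.23 ± 0.20 (adjusted p = 0.00334) and Odc1, ornithine decarboxylase, 1.73-fold to 14.15 ± 0.22 (adjusted p = 0.00737), while Nos3, endothelial nitric oxide synthase, rose at least 1.35-fold from the floor. Ddah1, which degrades methylated arginines, fell 4.83-fold (adjusted p = 0.00974), Oat, ornithine aminotransferase, by 1.76 (adjusted p = 0.00144) and Prodh, proline dehydrogenase, by 1.72 (adjusted p = 0.0115). At 48 h Prmt1 and Nos3 were higher and Aldh4a1 and Oat lower, of which only Prmt1 was called without liver 48 h array C, where Gatm was higher and Gamt lower. In kidney Odc1 fell from 15.95 ± 0.03 to 15.29 ± 0.09 at 24 h (adjusted p = 0.0328) and stood at 15.03 ± 0.26 at 48 h (adjusted p = 0.0234), the only limma call of the list there at either time. The rank product test called none of the 17 in kidney at either time.

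Of 19 transcription factors, deacylases and receptors listed as regulators of these genes, 9 fell in liver at 24 h and none rose, beside 15% lower and 17.9% higher over all genes. The rank product test called 2 of the 19 at 24 h, Ppargc1a and Sirt5. Ppargc1a, a coactivator of fasting metabolism, fell 6.10-fold, from 7.47 ± 0.39 to 4.86 ± 1.32 (adjusted p = 0.0193). Sirt5, the mitochondrial deacylase that acts on Cps1, fell 5.32-fold, from 9.45 ± 0.31 to 7.04 ± 0.52 (adjusted p = 0.00142). Nr1i3, the nuclear receptor CAR, fell 3.93-fold at 24 h (adjusted p = 0.00253), and its 48 h call above sham (1.23, adjusted p = 0.0411) was lost without liver 48 h array C. In kidney none of the 18 tested was called by limma or the rank product test at either time, while limma gave an unadjusted p under 0.05 for 4 at 24 h and 2 at 48 h.

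Genes of the 2 ends of the liver lobule were listed separately. Some also stand on the lists above and are counted in both, among them Hal, Slc1a2, Rhbg and Oat. Of 11 periportal genes tested, 4 fell at 24 h, with Hal, Aldh1b1 (-1.94) and Pck1 (-1.77) the largest, and 1 at 48 h, Cyp2f2 (-0.85, adjusted p = 0.0239). Of 18 pericentral genes tested, 4 fell at 24 h, with Slc1a2 and Oat the largest, and 6 at 48 h (5 without array C), among them Cyp1a2 (-1.38, adjusted p = 0.0104) and Rgn (-1.37, adjusted p = 0.00364). Over all genes 15% were lower at 24 h and 3.94% at 48 h. The rank product test called 1 periportal gene, Hal, at 24 h and 1 pericentral gene, Slc1a2, at each time. The difference between the lists was not tested. Of the 9 genes described here, Glul was also listed as pericentral and Arg1 as periportal, and both were left out of these counts. The rest were on neither list, although the cycle works mainly in periportal hepatocytes.

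**Figure D4:**
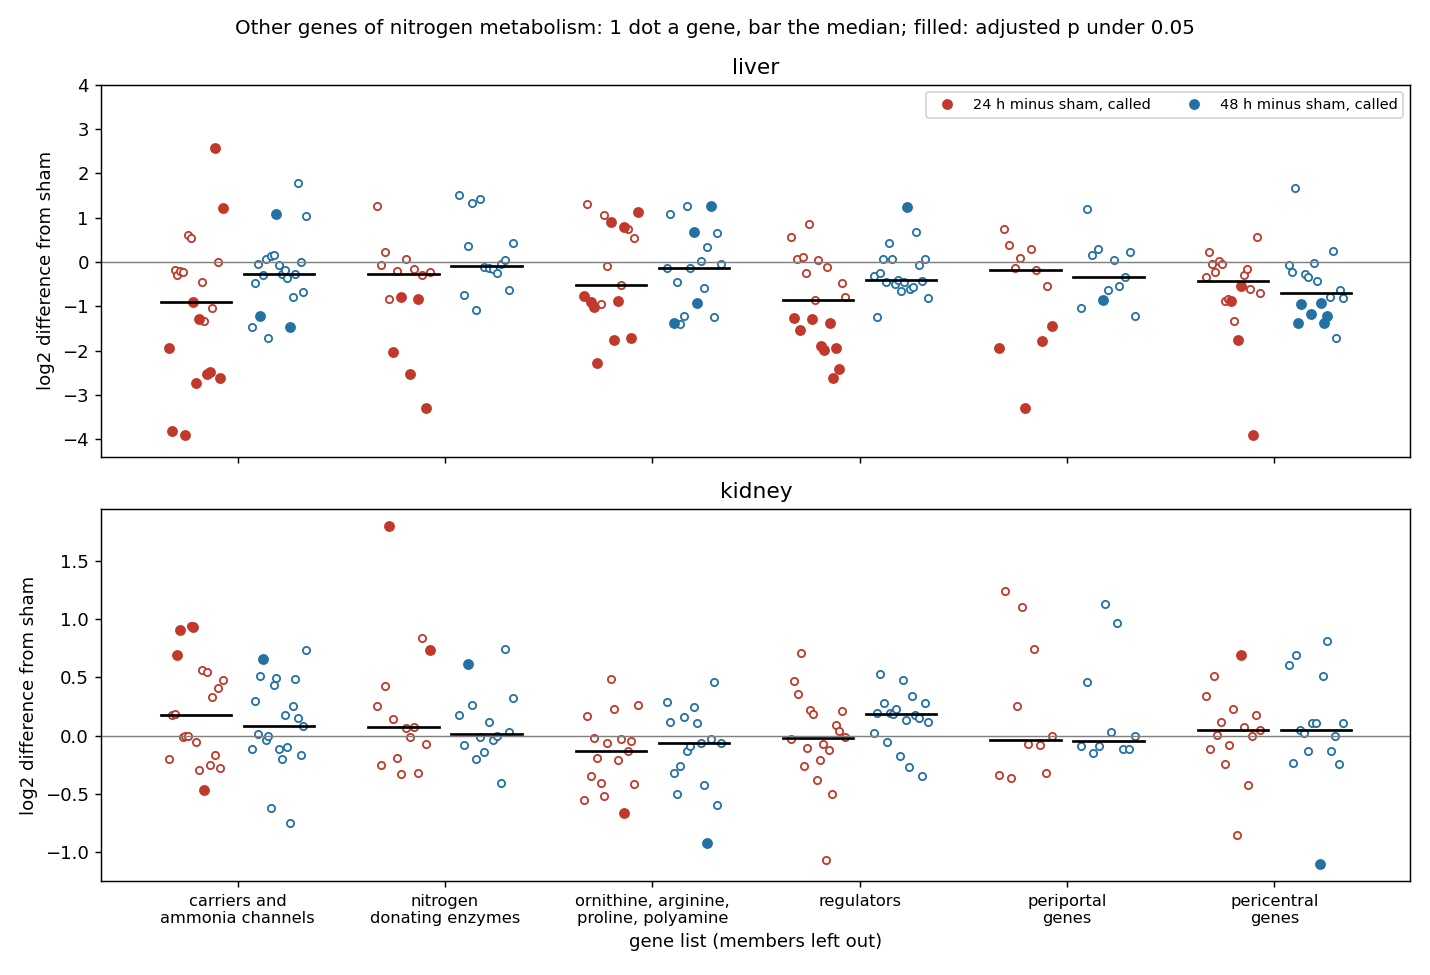
Log2 difference from sham (vertical axis) of each tested gene (dots) of 6 lists at 24 h (red) and 48 h (blue) in liver (top) and kidney (bottom), with the median of the list (bar); filled dots passed an adjusted p under 0.05. In liver the called dots of carriers, nitrogen donating enzymes and regulators at 24 h lie mostly below 0, with medians of -0.91, -0.26 and -0.86, and in kidney few dots are filled.

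Markers of cell types moved with the liver groups. The mean log2 value of 11 hepatocyte markers lay between 15.43 and 15.46 in sham liver, 15.19 and 15.32 at 24 h and 14.91 and 15.20 at 48 h. At 24 h 2 of the 11 fell, and at 48 h 6 fell (5 without array C), with Hpd (-0.68) and F2 (-0.54) the largest, beside 15% and 3.94% lower over all genes. That of 13 macrophage markers lay between 8.15 and 9.17 in sham, 9.82 and 10.22 at 24 h and 9.58 and 9.77 at 48 h, with 8 higher at 24 h (Marco at least 11-fold and Cd68 at least 7.07-fold) and 3 at 48 h. That of 9 endothelial markers lay between 6.03 and 6.22 in sham, 6.97 and 8.22 at 24 h and 6.64 and 7.14 at 48 h, with 7 higher at 24 h (Lyve1 16.3-fold) and 1 at 48 h, which was not called without array C. Of 8 stellate markers 3 were higher at 24 h and none at 48 h. Their means lay between 6.79 and 7.49 in sham, 7.60 and 8.05 at 24 h and 7.05 and 8.50 at 48 h. Their median change was 0.72 at 24 h and 0.75 at 48 h. Over all genes 17.9% were higher at 24 h and 6.25% at 48 h. The rank product test called 2 macrophage markers, Cd68 and Marco, and 1 endothelial marker, Lyve1, at each time. It called no hepatocyte or stellate marker at either time. The part of all these markers in the results for the 9 genes was not tested.

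Of the 10 neutrophil, lymphocyte and cholangiocyte markers tested, limma and the rank product test called none at either time, and limma gave an unadjusted p under 0.05 for 3 at 24 h and 1 at 48 h. S100a8, Mpo and Ngp as well as Cd3e, Cd3g, Cd79a and Ms4a1 were at the floor in sham liver. Hba-a1 was at the floor in all groups, and the erythroid gene Alas2 was lower in liver by 0.65 at 24 h and by 1.70 at 48 h, from 10.37 in sham to 9.72 and 8.68. Of the proximal tubule markers, Aqp1 stood at 9.61 in sham liver and was higher at 24 h, at 10.77 (adjusted p = 0.0402). All 11 hepatocyte markers were higher in sham liver than in sham kidney, and all 12 proximal tubule markers were higher in sham kidney.

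In kidney the mean of 12 proximal tubule markers lay between 13.70 and 13.93 in sham, 13.63 and 13.79 at 24 h and 13.75 and 13.86 at 48 h. At 48 h Aqp1 (0.84) and Cubn were higher and Slc7a13 (-1.20) and Slc22a6 lower by limma, and the rank product test called Slc7a13 alone. That of 11 distal nephron and collecting duct markers lay between 9.63 and 9.94 in sham, 10.28 and 10.52 at 24 h and 10.12 and 10.47 at 48 h, with Atp6v1b1, a proton pump subunit, higher by 1.20 and 1.54. Limma called 2 of the 11 at 24 h, Scnn1g and Atp6v1b1, and 1 at 48 h, Atp6v1b1, beside 2.21% and 1.31% higher over all genes. The rank product test called Aqp2 at 24 h and Atp6v1b1 at 48 h. The median change of the 11 was 0.45 at 24 h and 0.39 at 48 h. The distal range lay above that of sham at both times, as did Rhcg at both and Glul at 48 h, and its part in those results was not tested. Of 11 macrophage markers tested in kidney, neither test called any at either time, and limma gave an unadjusted p under 0.05 for none at 24 h and 1 at 48 h. The mean of the hepatocyte markers in kidney lay between 5.95 and 6.21 in sham, 6.35 and 6.65 at 24 h and 6.25 and 6.54 at 48 h, with Tat, Ambp and F2 at the floor in all 3 groups. At 24 h limma called none of the 11, with 4 at an unadjusted p under 0.05, and at 48 h it called Fgb higher, at least 1.07-fold (adjusted p = 0.0383). The rank product test called Serpina1c and Hpd at both times.

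For each gene tested in both organs, the genes nearest in their 4 changes from sham (liver and kidney, 24 h and 48 h) were found among 11655 genes by Euclidean distance on the log2 scale. Nearest to Glul were Rab43 (distance 0.12), Stard5 (0.28) and Itpr2 (0.32). Nearest to Asl were Pan2 (0.21), Dedd2 (0.27) and Clic3 (0.28), and nearest to Glud1 were Wnt8a (0.10), Abhd10 (0.10) and Gfm1 (0.11). Those of Arg2 lay farther off: Kcnj10 (0.81), 1700028J19Rik (0.86) and Tmem37 (0.94). Cps1, at the floor in kidney, was nearest to 4933405O20Rik, Cel and Fbln1, and the dim Ass1 set to Rnf135, Slc25a16 and Akr1c14. Otc, Arg1 and Nags did not pass the kidney filter and were left out.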

How the data were processed

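RNA of 18 samples, 3 per group, was read on Affymetrix mouse expression arrays. The deposited values are log2 expression values made by the authors with gcRMA in R, per the labels' protocols and the series' design text; no version is stated. Their table held 45101 probe sets, 34945 of them named for 1 gene and 932 for several. Each array was taken as 1 animal, although the protocol's wording on mixing equal amounts of RNA could mean pooled mice. If arrays share animals, p-values measure technical spread only. The labels name a Cy3 dye, which these single-colour arrays do not use.

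Group means were fitted with limma 3.58.1 in R 4.3.3, with a trend in the variance, over the 9 arrays of an organ or all 18 for contrasts between organs. Tests are two-sided and adjusted by Benjamini-Hochberg over all genes passing the filter. The rank product test of the design text, run with 100 permutations, and the other settings are given at the end. Fits were tested on simulated data. The letters A to C were not taken to pair arrays: same-letter deviations within an organ correlated at a median of 0.01 (range -0.13 to 0.23, 18 pairs). Whether a letter marks 1 mouse in both organs is not stated. Liver and kidney arrays of the same letter and time correlated at 0.24, 0.03 and 0.26 in sham and at -0.07 to 0.08 in the GalN groups, and tests between organs took all arrays as independent.

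All members are named. Each pathway list gives up to 3 called genes with the largest rise and 3 with the largest fall against sham, each marker list up to 2, and each member its 3 nearest genes. Members and lists were chosen with earlier results of these data known.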

Additional observations from a re-analysis of the deposited data

Results flagged for a closer look

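The liver and kidney changes from sham differed, by a direct test, in 8 cases, each given as kidney change minus liver change with the limma adjusted p. At 24 h Glul differed by 1.33 (adjusted p = 0.00175), with a liver change of -1.54 and a kidney change of -0.21. The other Glul set, as given above, was not called. Arg2 differed by 2.93 (adjusted p = 0.0073), with a kidney change of 2.74 and a liver change of -0.19 at the floor. Arg1 differed by 0.70 (adjusted p = 0.00248) and Cps1 by 0.50 (adjusted p = 0.00915), both at the floor in kidney.

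At 48 h Glud1 differed by -0.60 (adjusted p = 0.0036), with a liver change of 0.29 and a kidney change of -0.31, neither of which passed its own test. Its other set gave -0.57 (adjusted p = 0.00559). Glul differed by 0.93 (adjusted p = 0.0337), with a kidney change of 0.61 and a liver change of -0.31. That call was lost in 7 of 18 fits that left out 1 array, and the other Glul set was not called. Otc differed by 0.79 (adjusted p = 0.014) and Cps1 by 0.54 (adjusted p = 0.0138), and these are the liver changes of genes at the floor in kidney.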

How the results depend on the processing

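Of the single-gene results under other settings, 1580 stayed on their side of the threshold, 91 lost the call, 72 gained it and 2 reversed. Averaging a gene's probe sets turned Otc from 24 h to 48 h in liver to 0.0077 (adjusted p = 1), and median centring turned Glud1 between the sham organs to 0.15. Of the 9 genes, the rank product test called 0 in each liver comparison. In liver at 48 h against sham, 2 were called, against 1 with quantile normalization, 1 with only the arrays compared and 5 with array weights. From 24 h to 48 h in liver 5 were called, against 3 without a filter, 3 with median centring and 3 with only the arrays compared. In kidney at 24 h, 0 were called, against 1 (Arg2) with the percentile 60 filter, median centring, averaged sets, array weights, the floor filter, all 18 arrays or rank product. In kidney at 48 h, 1 was called, against 2 with quantile normalization, 2 with averaged sets, 3 with array weights and 0 with all 18 arrays. From 24 h to 48 h in kidney 1 was called, against 2 with the percentile 60 filter, quantile normalization, median centring, averaged sets or the floor filter and 0 with only the arrays compared. The 48 h response difference gave 4, and 2 with quantile normalization. With the letter as a replicate block, the count was 0 in liver at 48 h, 0 in kidney at 48 h and 0 in kidney from 24 h to 48 h, and the other counts stayed within 1.5 times. Leaving out 1 array gave 3 to 5, 0 to 3 and 2 to 4 calls in the liver comparisons, 0 to 1 in each kidney one, 4 to 5 and 3 to 5 for the response differences and 5 to 7 between the sham organs. The cause of these shifts was not tested.

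Counts over all genes moved more. At 24 h in liver 3967 were called, against 590 by rank product. At 48 h in liver 1229 were called, against 4727 with array weights, 2490 with all 18 arrays, 769 without a filter, 757 with only the arrays compared, 605 with the replicate block and 286 by rank product. It was 806, 448 and 596 without liver sham A, B and C and 604 without liver 48 h A. From 24 h to 48 h in liver rank product called 469, against 3355. In kidney 636 were called at 24 h and 332 at 48 h, against 285 and 131 without a filter and 143 and 49 with the replicate block. Without kidney sham B these were 15 and 43, and without kidney sham A 109 and 29. From 24 h to 48 h in kidney 194 were called, against 4 with the block and 1 without kidney 48 h A. Median centring turned the liver 24 h split from 2161 higher and 1806 lower to 1789 and 2298, and that at 48 h from 754 and 475 to 455 and 693. The floor filter and all fits added to compare single probe sets or lists without liver 48 h array C were chosen after the data were seen. Signals near the lowest value, such as those of Arg2 in liver and the Ass1 set, carry little information on level.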
